A study of Rattus norvegicus with 20 samples.

Results

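The genes described here are 10 angiogenic ligands and endothelial receptors, Vegfa, Vegfb, Kdr, Flt1, Tek, Tie1, Angpt1, Angpt2, Nos3 and Eng, taken by their symbols from the 32495 named gene rows of the deposited count table. Each symbol matched a single row, and all 10 passed the filter on low counts that left 11716 genes for testing. The tissue was gastrocnemius muscle of female Fischer 344 rats, sequenced as rRNA-depleted total RNA. Every rat carried a Ward colorectal carcinoma that had grown for some weeks before treatment, so no group here is free of tumour. TUMOUR STD (5 samples) received no chemotherapy and ate the standard diet throughout. CHEMO STD (6 samples from 7 libraries) received repeated cycles of CPT-11 (irinotecan) followed by 5-FU (5-fluorouracil) on the same standard diet. CHEMO FO (8 samples) received the same chemotherapy and was switched to a diet with fish oil, a source of EPA and DHA, on the day chemotherapy began. The labels do not name the animal behind each library, so p-values measure the spread between these samples.

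Blood vessels grow and are maintained through a pair of ligand systems that act on endothelial receptors. Vascular endothelial growth factor A, encoded by Vegfa, binds the signalling receptor Kdr (VEGFR2) and Flt1 (VEGFR1), which takes up ligand but signals weakly. Vegfb binds Flt1 but not Kdr. The angiopoietins act on Tek (Tie2), with Angpt1 as the stabilising agonist and Angpt2 as a context-dependent antagonist released by endothelium, and Tie1 is an orphan receptor that pairs with Tek. Eng (endoglin) is a co-receptor for BMP9 and TGF-beta in endothelium, and Nos3 is the endothelial nitric oxide synthase that relaxes vessels and acts downstream of Kdr. In skeletal muscle the fibres themselves are a major source of Vegfa, whereas the receptors are made chiefly by the capillary endothelium that surrounds each fibre.

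Promoter sequences are printed for Tie1 and Nos3, whose differences were the only ones among the 10 genes with an unadjusted p below 0.05, and for Eng, whose level followed Tie1 from sample to sample. They are the 250 bases before the transcription start, read 5′ to 3′ on the gene's own strand, from RefSeq on build GRCr8, with every GC box (GGGCGG or its other strand CCGCCC) in capitals. RefSeq promoters were matched for 7 of the 10 genes (8 promoters, since Vegfa has 2 starts), and Tek, Angpt1 and Angpt2 were not matched. Tie1 lies at chr5:137304982-137305231 (minus strand), Nos3 at chr4:11706582-11706831 (minus strand) and Eng at chr3:36332029-36332278 (plus strand).
Tie1: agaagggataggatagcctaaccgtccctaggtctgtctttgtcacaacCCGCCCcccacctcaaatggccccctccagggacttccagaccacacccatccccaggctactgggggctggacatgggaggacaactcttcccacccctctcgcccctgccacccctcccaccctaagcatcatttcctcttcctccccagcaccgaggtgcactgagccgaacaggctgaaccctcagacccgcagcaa
Nos3: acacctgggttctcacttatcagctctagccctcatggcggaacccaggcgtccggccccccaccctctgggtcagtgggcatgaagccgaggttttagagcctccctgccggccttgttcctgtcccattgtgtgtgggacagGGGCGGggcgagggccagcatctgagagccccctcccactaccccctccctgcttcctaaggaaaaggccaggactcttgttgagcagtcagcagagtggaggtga
Eng: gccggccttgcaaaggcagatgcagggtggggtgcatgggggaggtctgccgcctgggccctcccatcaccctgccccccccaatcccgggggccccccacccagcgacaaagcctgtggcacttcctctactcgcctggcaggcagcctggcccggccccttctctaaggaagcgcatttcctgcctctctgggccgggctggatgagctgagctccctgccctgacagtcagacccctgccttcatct
The GC box stood in 6 of the 8 promoters, against 30.5% of 33469 RefSeq promoters of the same length. Counted from the transcription start, it began at position -201 of Tie1 and -106 of Nos3, and these letters were not in the Eng window. Of the other motifs searched on both strands, the ETS core CCGGAA was in 1 of 8 (Kdr; 12.6% of all promoters) and TATAAA in 1 of 8 (Flt1; 12.9%). The hypoxia response core ACGTG (16.6%) and the FOX motif TGTTTAC (3.21%) were in none of these 8 windows. These matches are a description of the letters only.

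Levels are given as CPM, counts scaled to library size after TMM normalisation. The total counts per library ran from 5428540 to 10887000 in TUMOUR STD, 3023900 to 10537300 in CHEMO STD and 3041140 to 9130630 in CHEMO FO, and the lowest count of any of the 10 genes was 15, for Angpt2. CHEMO STD 1 and 2 were far closer than any other pair within a group (chi-square per gene 2.23, against 13.7 to 255 in the 58 other pairs), though above the value of about 1 that counting alone gives, and were summed and counted as 1 sample. The muscle genes Acta1, Ckm, Mb, Des and Myod1 were detected in every sample, as were the endothelial markers Cdh5 (25.5 to 55.7 CPM), Vwf (27.9 to 87.3 CPM) and Egfl7 (24.4 to 51.7 CPM), while Robo4 was at 0 in 16 of 19 samples. TUMOUR STD 10 stood apart by its keratinocyte genes, whose summed level was 571 CPM there, 119 CPM in CHEMO FO 16 and 8.05 CPM at most in the other samples. CHEMO FO 18 stood apart by its TMM factor of 1.21 and its fast fibre genes, summed to 90812 CPM against a group median of 153689 CPM. Of all 19 samples it also had the highest summed leukocyte and macrophage genes (831 CPM, group median 373 CPM). Its lymphatic endothelial genes (176 CPM, group median 59.0 CPM) and hypoxia-inducible genes (1235 and 999 CPM) were the highest too. Its pericyte and smooth muscle genes (316 and 548 CPM) and PGC-1 and oxidative metabolism genes (189 and 297 CPM) were the lowest, as were its Kdr and Vegfb. In whole muscle, fewer endothelial cells and less RNA per endothelial cell cannot be told apart.

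To describe the chemotherapy effect, CHEMO STD was compared with TUMOUR STD. The receptor Tie1 was lower after chemotherapy at an unadjusted p below 0.05, by a fold short of 1.5, and none of the 10 genes passed both thresholds of the call (p below 0.05 and at least 1.5-fold). The median log2 fold change of the 10 genes was -0.21, with 7 genes lower and 3 higher, against a median of -0.0016 and 50.3% lower over all genes tested. By edgeR 0 of 10 genes were called and 1 of 10 had p below 0.05, beside 2.38% and 6.5% of all genes (3.83% lower at p below 0.05), and DESeq2 and limma voom also called 0 of 10. The smallest adjusted p among the 10 was 0.719.

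Tie1 stood at 35.02, 41.3, 49.5, 33.1 and 36.7 CPM in TUMOUR STD 8 to 12. In CHEMO STD its lowest value was 24.4 CPM, the median 28.0 CPM and the highest 37.7 CPM. In CHEMO FO it ran from 24.7 CPM over a median of 26.3 CPM to 38.8 CPM. The lowest TUMOUR STD sample lay above 5 of 6 CHEMO STD samples and 6 of 8 CHEMO FO samples, so the ranges overlapped only at the top of the treated groups. Tie1 averaged 39.1 ± 6.57 CPM in TUMOUR STD (SD, n = 5), 29.4 ± 4.96 CPM in CHEMO STD (SD, n = 6) and 29.3 ± 5.33 CPM in CHEMO FO (SD, n = 8). By edgeR its log2 fold change was -0.41 in CHEMO STD versus TUMOUR STD (standard error 0.151, 95% interval -0.72 to -0.10, unadjusted p = 0.0127, adjusted p = 0.719). In CHEMO FO versus TUMOUR STD, which differ in both drugs and diet, it was -0.43 (standard error 0.141, interval -0.72 to -0.13, unadjusted p = 0.00631, adjusted p = 0.487). These comparisons share the TUMOUR STD samples. A two-sided exact permutation test of log2 CPM gave p = 0.0195 and p = 0.0155 for them. The highest Tie1 value in TUMOUR STD came from the sample with keratinocyte genes, and without it the differences were -0.31 (unadjusted p = 0.0545 by edgeR) and -0.33 (unadjusted p = 0.0317). CHEMO FO 16, the other sample with a raised level of these genes, had 35.9 CPM of Tie1, and without it the second difference was -0.47.

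**Figure D1:**
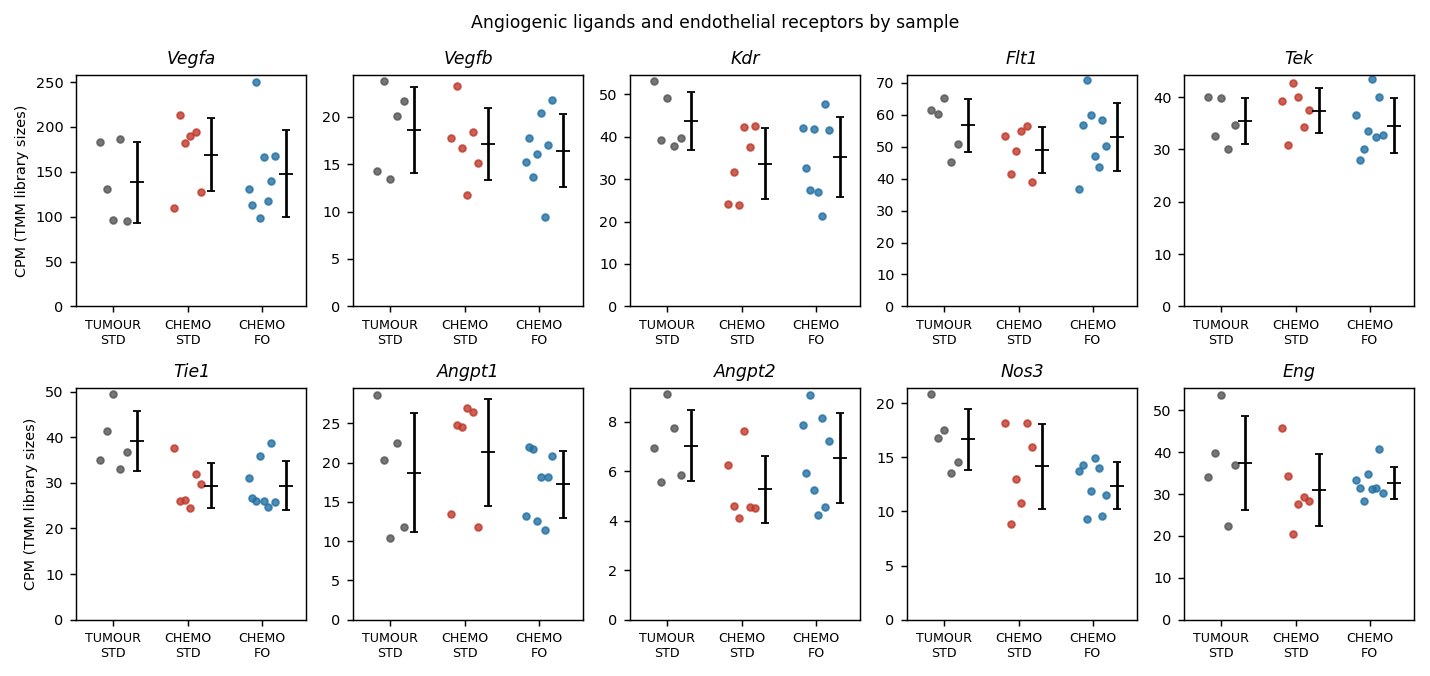
Level of each of the 10 genes in CPM (y axis, TMM library sizes) in each of 19 samples (points), by group (x axis), with the group mean and SD as a bar to the right. Tie1 sits between 33.1 and 49.5 CPM in TUMOUR STD and between 24.4 and 38.8 CPM in the chemotherapy groups, and the groups of every gene overlap.

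Its partner Tek stood at like levels in the 3 groups. It was 40.1, 32.7, 39.7, 30.0 and 34.7 CPM in TUMOUR STD 8 to 12, 30.8 to 42.7 CPM in CHEMO STD (median 38.4) and 27.9 to 43.5 CPM in CHEMO FO (median 33.1). The groups covered nearly the same range. The log2 fold change of Tek was 0.082 in CHEMO STD versus TUMOUR STD (interval -0.19 to 0.35), and the interval lay within 1.5-fold either way in all 3 comparisons. Tek was also the steadiest of the 10 genes. Its pooled SD within groups was 0.19 on the log2 scale, and 7.90% of the genes tested varied less, whereas the median gene had 0.36.

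Among the VEGF receptors, Kdr was 53.1, 39.3, 49.2, 37.8 and 39.7 CPM in TUMOUR STD 8 to 12. It ran from 23.8 CPM over a median of 34.7 CPM to 42.4 CPM in CHEMO STD, and from 21.2 CPM over 37.1 CPM to 47.7 CPM in CHEMO FO. In both chemotherapy groups some samples were lower than every TUMOUR STD sample and the others lay inside its range. The log2 fold change of Kdr in CHEMO STD versus TUMOUR STD was -0.39 (interval -0.81 to 0.02, unadjusted p = 0.0625 by edgeR), and in CHEMO FO versus TUMOUR STD -0.32 (interval -0.71 to 0.06). Neither interval excluded equal levels or a difference of 1.5-fold. Flt1 was closer between groups, at 56.7 ± 8.22 CPM in TUMOUR STD (SD, n = 5), 49.0 ± 7.26 CPM in CHEMO STD (SD, n = 6) and 53.0 ± 10.7 CPM in CHEMO FO (SD, n = 8), and its intervals lay within 1.5-fold in all 3 comparisons. The log2 ratio of Flt1 to Kdr counts within a library averaged 0.37 ± 0.157 (SD, n = 5) in TUMOUR STD, 0.57 ± 0.466 (SD, n = 6) in CHEMO STD and 0.61 ± 0.491 (SD, n = 8) in CHEMO FO. The mean ratios differed by less than the spread within the chemotherapy groups (exact permutation p = 0.379 for CHEMO STD and p = 0.321 for CHEMO FO, each versus TUMOUR STD). The SDs of this ratio were not compared by a test.

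Eng spread widely in TUMOUR STD, at 34.0, 39.7, 53.7, 22.4 and 36.8 CPM in samples 8 to 12. It ran from 20.6 CPM over 28.8 CPM to 45.8 CPM in CHEMO STD and from 28.3 CPM over 31.5 CPM to 40.7 CPM in CHEMO FO. The TUMOUR STD range spanned all but 1 sample of CHEMO STD and the whole of CHEMO FO. The log2 fold change in CHEMO STD versus TUMOUR STD was -0.27 (standard error 0.189, interval -0.66 to 0.12). Without TUMOUR STD 10, whose Eng was the highest of all samples, it was -0.10, and without TUMOUR STD 11, the lowest of its group, it was -0.40 with an unadjusted edgeR p of 0.0341.

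Of the ligands, Vegfa was 184, 131, 95.8, 186 and 94.9 CPM in TUMOUR STD 8 to 12. It ran from 109.6 CPM over a median of 186 CPM to 213 CPM in CHEMO STD, and from 98.2 CPM over 136 CPM to 251 CPM in CHEMO FO. Both high and low samples occurred in every group. The log2 fold change in CHEMO STD versus TUMOUR STD was 0.29 (standard error 0.235, interval -0.20 to 0.78), the highest of the 10 genes in that comparison, and the interval held 0. Vegfb, the other VEGF ligand, averaged 18.6 ± 4.58 CPM in TUMOUR STD (SD, n = 5), 17.1 ± 3.80 CPM in CHEMO STD (SD, n = 6) and 16.4 ± 3.86 CPM in CHEMO FO (SD, n = 8), and its intervals lay within 1.5-fold in all 3 comparisons. The log2 ratio of Vegfa to Vegfb counts differed by 0.42 between CHEMO STD and TUMOUR STD (exact permutation p = 0.221).

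The angiopoietins differed in opposite directions after chemotherapy on the standard diet, neither beyond the spread between samples. Angpt1 was 28.6, 20.3, 10.4, 22.4 and 11.9 CPM in TUMOUR STD 8 to 12, 11.8 to 27.0 CPM in CHEMO STD (median 24.6) and 11.4 to 21.96 CPM in CHEMO FO (median 18.2). In CHEMO STD, 4 samples stood between 24.5 and 27.0 CPM and the other 2 at 11.8 and 13.4 CPM. Its log2 fold change was 0.18 in CHEMO STD versus TUMOUR STD (interval -0.37 to 0.73). Angpt2 was 6.94, 5.56, 9.11, 7.75 and 5.84 CPM in TUMOUR STD 8 to 12, 4.09 to 7.61 CPM in CHEMO STD (median 4.56) and 4.21 to 9.08 CPM in CHEMO FO (median 6.57). In CHEMO STD, 4 of 6 samples were below the lowest TUMOUR STD sample. Its log2 fold change was -0.43 in CHEMO STD versus TUMOUR STD (interval -0.90 to 0.04, unadjusted p = 0.0731 by edgeR), on counts of 15 to 124 per sample.

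The ratio of Angpt2 to Angpt1 counts, antagonist to agonist of Tek, had a median of 0.348 in TUMOUR STD, 0.233 in CHEMO STD and 0.383 in CHEMO FO. Each group covered a wide range, 0.245 to 0.879, 0.168 to 0.467 and 0.236 to 0.715. The mean log2 ratio of CHEMO STD minus that of TUMOUR STD was -0.63 (exact permutation p = 0.162), and that of CHEMO FO minus that of CHEMO STD was 0.56 (exact permutation p = 0.109). After adjustment over the 9 ratio tests both had p = 0.589 (exact permutation tests, Benjamini-Hochberg), so these differences stayed within the spread between samples.

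Nos3 was 20.8, 16.8, 17.5, 13.6 and 14.5 CPM in TUMOUR STD 8 to 12. It ran from 8.86 CPM over 14.5 CPM to 18.2 CPM in CHEMO STD, and from 9.34 CPM over 12.8 CPM to 14.9 CPM in CHEMO FO. In CHEMO FO 4 of 8 samples were below the lowest TUMOUR STD sample and the other 4 in the lower part of its range. Nos3 averaged 16.6 ± 2.84 CPM in TUMOUR STD (SD, n = 5), 14.2 ± 3.90 CPM in CHEMO STD (SD, n = 6) and 12.4 ± 2.15 CPM in CHEMO FO (SD, n = 8). Its log2 fold change was -0.42 in CHEMO FO versus TUMOUR STD (standard error 0.174, interval -0.78 to -0.06, unadjusted p = 0.0243 and adjusted p = 0.516 by edgeR). Versus TUMOUR STD it was -0.21 in CHEMO STD (interval -0.59 to 0.17). The difference between the chemotherapy groups themselves was -0.21 (interval -0.55 to 0.14), so the data do not show that Nos3 differed by diet. Without TUMOUR STD 8, the highest of all samples, the difference of CHEMO FO from TUMOUR STD was -0.32 and its unadjusted edgeR p 0.0997.

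For CHEMO FO versus TUMOUR STD as a whole, 0 of the 10 genes were called by edgeR and 2 of 10 (Tie1 and Nos3) had p below 0.05, beside 3.6% and 9.04% of all genes tested (5.32% lower at p below 0.05). DESeq2 and limma voom called 0 of 10 as well. The median log2 fold change was -0.15, with 9 of 10 genes lower, against 49.6% of all genes. Vegfa, at 0.10, was the exception.

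To describe the diet effect, CHEMO FO was compared with CHEMO STD. Tie1, Kdr, Vegfb and Eng had nearly equal means in these groups, and the values that stood farthest apart were those of the angiopoietins. By edgeR 0 of the 10 genes were called and 0 had p below 0.05, beside 1.66% and 4.5% of all genes tested (lower alone 1.05% and 2.06%), and DESeq2 and limma voom called 0 of 10. The median log2 fold change was -0.041, with 6 of 10 genes lower, against 51.3% of all genes. Angpt2 had the highest value, 0.32 (interval -0.11 to 0.76), and Angpt1 the lowest, -0.29 (interval -0.78 to 0.21). The difference of Tie1 was -0.018 (interval -0.30 to 0.27). For 7 of the 10 genes (Vegfb, Kdr, Flt1, Tek, Tie1, Nos3 and Eng) the 95% interval lay within 1.5-fold either way. For Vegfa, Angpt1 and Angpt2 it reached beyond, so a difference of that size was not excluded.

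**Figure D2:**
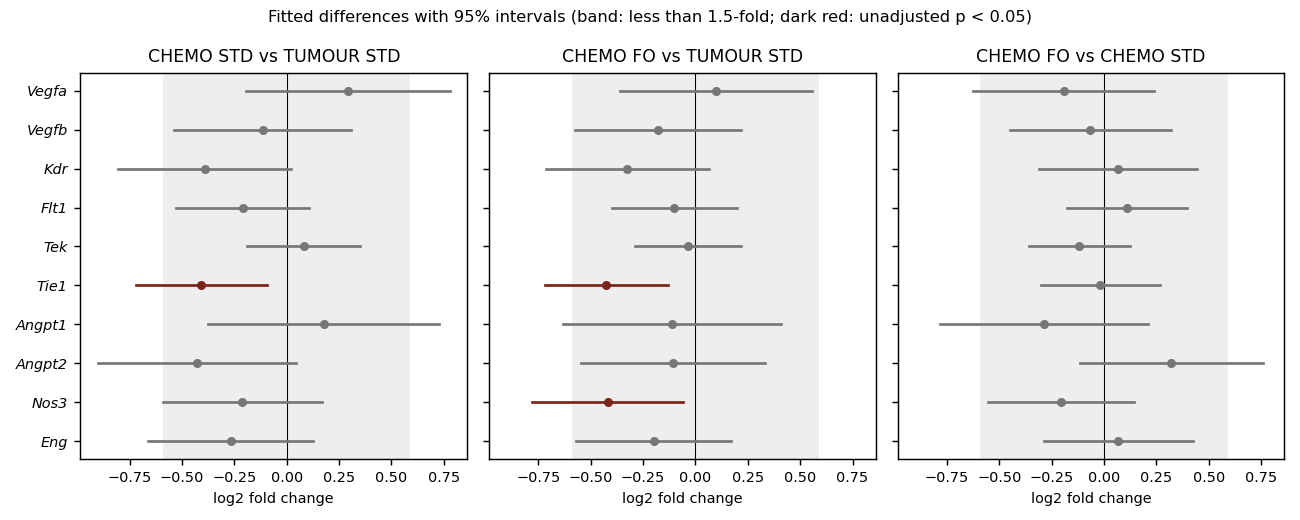
Fitted log2 fold change (x axis) with its 95% interval for each of the 10 genes (y axis) in the 3 comparisons; the grey band marks less than 1.5-fold, and dark red an unadjusted p below 0.05. The interval of Tie1 lies below 0 in both comparisons with TUMOUR STD and spans -0.30 to 0.27 between the chemotherapy groups.

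How the 10 genes varied between samples of the same group was described by correlating log2 CPM after subtracting each group's mean, over 19 samples, with permutations within groups. Of 45 pairs, 2 passed an adjusted p of 0.05 for both Pearson's r and Spearman's rho, Tie1 with Eng and Vegfa with Angpt1. Each pair shares libraries and hence depth and scaling. Eng and Tie1 had r = 0.74 and rho = 0.72 (permutation adjusted p = 0.00472 and 0.0313), and lay on the same side of their group means in 15 of 19 samples. Within CHEMO STD r was 0.68 and within CHEMO FO 0.90. Without the 2 samples farthest from the median of Tie1 (CHEMO FO 19 and CHEMO STD 1 and 2) r was 0.64. With group means taken anew after leaving them out, it was 0.63 (permutation p = 0.0137, adjusted p = 0.307), so it no longer passed the adjusted threshold. These samples were picked on Tie1 itself, which narrows its range and lowers r whatever the relation. The fit cannot tell whether the relation rests on them. Of the 11714 other genes tested, 0.196% were as close to Eng as Tie1 was and 0.888% were as close to Tie1 as Eng was.

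**Figure D3:**
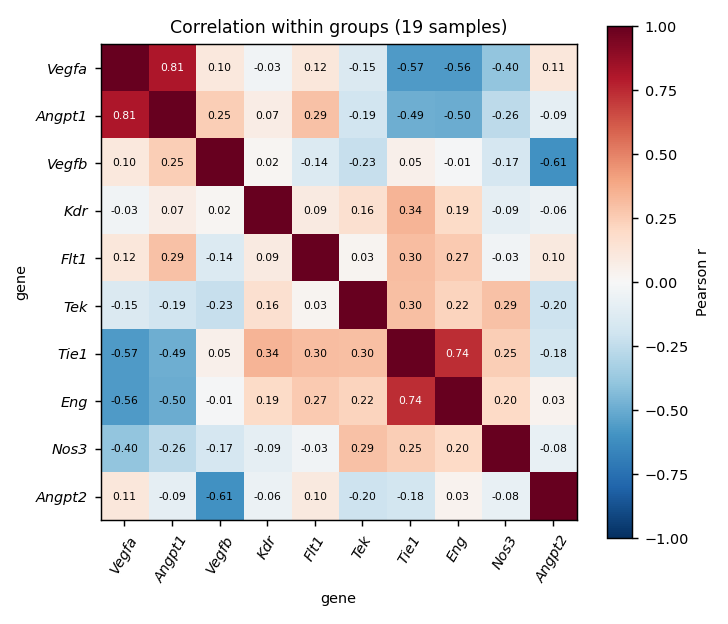
Pearson r between the 10 genes (both axes) over 19 samples after group means were subtracted, red for positive and blue for negative. Vegfa with Angpt1 (0.81) and Tie1 with Eng (0.74) are the 2 pairs that passed the adjusted threshold, and Vegfa stands at -0.57 with Tie1 and -0.56 with Eng.

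Vegfa and Angpt1, both ligands, had r = 0.81 and rho = 0.75 (permutation adjusted p = 0.00472 and 0.0313), and the value was 0.93 within CHEMO STD and 0.61 within CHEMO FO. The samples fell to 2 sides. Angpt1 was 0.11 to 0.70 above its group mean on the log2 scale in 12 samples and 0.34 to 0.77 below it in 7, with no sample between, and Vegfa was on the same side in 16 of 19. Within the 12 samples r was 0.33 and within the 7 it was 0.36, but these sides were drawn on Angpt1 itself, which narrows its range and lowers r whatever the relation. Without the 2 samples farthest from the median of Vegfa (CHEMO FO 15 and CHEMO STD 1 and 2), r was 0.82, with a permutation adjusted p of 0.0576. As many as 117 of the 11714 other genes tested were as close to Vegfa as Angpt1 was. The closest to Vegfa among 9344 genes of at least 5 CPM were Zmat2 (r = 0.91), Tma7 (r = 0.90) and Mre11 (r = 0.89).

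**Figure D4:**
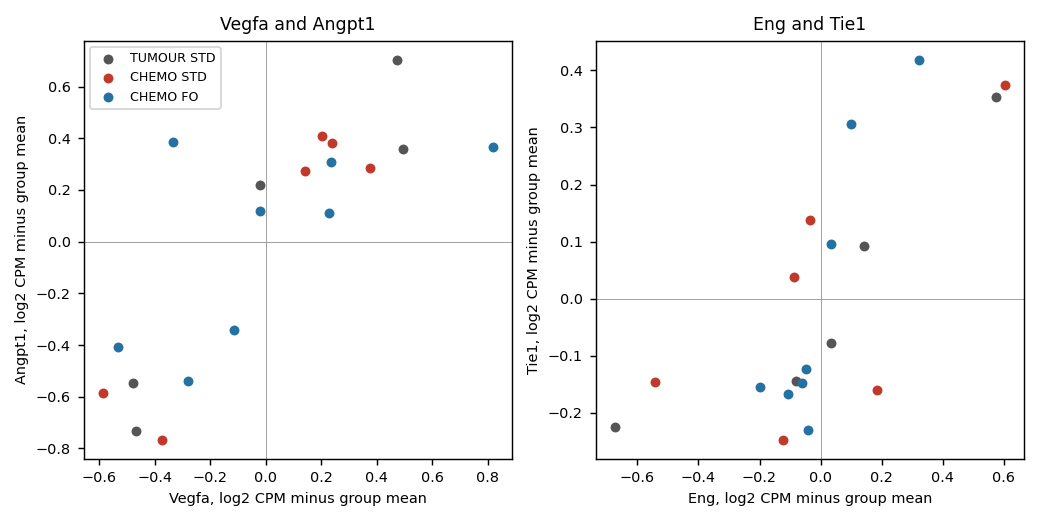
Log2 CPM minus the group mean of Vegfa against Angpt1 (left) and of Eng against Tie1 (right), with a point for each of 19 samples coloured by group. The samples of the left panel lie in a lower and an upper set with an empty band between -0.34 and 0.11 on the Angpt1 axis, and on the right 15 of 19 points lie on the same side of both means.

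By the same measure, the genes closest to Kdr over 19 samples were Plk2 (r = 0.87), Alpl (r = 0.82) and Mief2 (r = 0.80). Those closest to Tek were Commd2 (r = 0.79), Spats2l (r = 0.73) and Clec2g (r = 0.72), and those closest to Angpt2 were Phf21a (r = 0.72), Als2cl (r = 0.69) and Taf5l (r = 0.68). Each is the highest of many correlations searched and is given as a description. Against 8 other measures of the samples (6 gene lists, the library total and the TMM factor; 80 relations), 3 passed a permutation adjusted p of 0.05. Tie1 followed the mean of endothelial identity genes (r = 0.72 and rho = 0.73, permutation adjusted p = 0.0224), with 0.92 within CHEMO STD, 0.68 within CHEMO FO and 0.64 without the 2 farthest samples. Eng followed the pericyte and smooth muscle genes (r = 0.56 and rho = 0.72, permutation adjusted p = 0.0405), with 0.83 within CHEMO STD, 0.48 within CHEMO FO and 0.50 without the 2 farthest. This relation was not particular to Eng. Tie1 stood as close to the same list (r = 0.66 and rho = 0.73, 0.59 without the 2 farthest), with a permutation adjusted p of 0.0621. Kdr ran opposite to the hypoxia-inducible genes (r = -0.73 and rho = -0.69, permutation adjusted p = 0.0405), with -0.93 within CHEMO STD, -0.75 within CHEMO FO and -0.60 without CHEMO FO 18 and 19.

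The wider vascular gene lists were set beside the 10 genes. Vessel wall genes held 5 calls in CHEMO STD versus TUMOUR STD, 3 in CHEMO FO versus TUMOUR STD and 0 in CHEMO FO versus CHEMO STD by edgeR. Of 10 tested pericyte and smooth muscle genes, 9 were lower in CHEMO STD than TUMOUR STD and 5 were called lower (1.45% of all genes tested were), namely Acta2 (log2 fold change -1.11) and Tagln (-0.74), both of the contractile machinery, the smooth muscle myosin Myh11 (-0.93), the pericyte proteoglycan Cspg4 (-0.77) and the mural cell receptor Notch3 (-0.77). The list's median was -0.55, against -0.21 for the 10 genes. The other tested genes of the list were not called. They were Pdgfrb (-0.37), Abcc9 (-0.30), Kcnj8 (-0.17), Mcam (-0.040) and Rgs5 (0.0080), so the lower levels did not extend evenly over the list. Without TUMOUR STD 10 the calls of Cspg4 and Notch3 were lost, at -0.52 and -0.46. In CHEMO FO versus TUMOUR STD all 10 were lower and 3 were called lower, beside 2.51% of all genes (Acta2 -0.89, Myh11 -0.91 and Tagln -0.62; median -0.52), Tagln losing its call by limma voom and without TUMOUR STD 8 or CHEMO FO 14, 15 or 18. In CHEMO FO versus CHEMO STD the median was 0.069. The summed level of the 11 listed genes ran from 634 to 882 CPM in TUMOUR STD, 464 to 635 CPM in CHEMO STD and 316 to 662 CPM in CHEMO FO. Abcc9 alone ran from 100 to 366 CPM over the samples, so the sum weighs this gene most. Cnn1 was at 0 in 2 of 19 samples. The part of these cells in the difference of Tie1 was not tested.

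Of 17 tested endothelial identity genes, 12 were lower in CHEMO STD than TUMOUR STD and 15 in CHEMO FO than TUMOUR STD, beside 50.3% and 49.6% of all genes, with medians of -0.11 and -0.22, and none passed both thresholds by edgeR. At p below 0.05 alone there were 2 (Cdh5 at -0.38 and Mmrn2 at -0.41) and 5 (Cdh5 at -0.39, Mmrn2 at -0.41, Rasip1 at -0.51, Tal1 at -0.55 and Cd34 at -0.50) of the 17, beside 6.5% and 9.04% of all genes. Cdh5 is the cadherin of endothelial junctions. In CHEMO FO versus CHEMO STD 15 of the 17 were also lower, beside 51.3% of all genes, with a median of -0.072. By edgeR 0 of them had p below 0.05 in that comparison. The summed level of the 19 listed genes in the table ran from 684 to 885 CPM in TUMOUR STD, 523 to 873 CPM in CHEMO STD and 541 to 765 CPM in CHEMO FO. Aqp1 alone ran from 245 to 446 CPM over the samples, so the sum weighs this gene most. The log2 fold change of Aqp1 in CHEMO STD versus TUMOUR STD was -0.11. The part of these genes' level in the lower Tie1 was not tested.

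Of 10 other tested VEGF, angiopoietin and co-receptor genes, 7 were lower in CHEMO STD and 8 in CHEMO FO, each versus TUMOUR STD. Of all genes tested, 50.3% and 49.6% were lower in these comparisons. Placental growth factor Pgf, a further Flt1 ligand, was called higher in CHEMO FO than TUMOUR STD (2.61 ± 1.28 against 1.26 ± 0.576 CPM, log2 fold change 1.01, standard error 0.387). Pgf was low in every sample, at 0.520 to 4.62 CPM. In that comparison 1.09% of all genes were called higher and 2.51% lower. The VEGF co-receptor Nrp1 had -0.31 in CHEMO STD and -0.37 in CHEMO FO, short of 1.5-fold. Of 23 other angiogenic signal genes, 17 were lower in each chemotherapy group than TUMOUR STD. The apelin receptor Aplnr was called lower in CHEMO FO than TUMOUR STD (log2 fold change -0.77, standard error 0.233), and Angptl4, a lipase inhibitor induced by fatty acids, was called higher (1.54, standard error 0.683), a call lost by limma voom (0.71), with only the compared groups fitted by edgeR or DESeq2, and without TUMOUR STD 11, CHEMO FO 17 or CHEMO FO 18. Apold1, an early response gene of endothelium, was called higher in CHEMO FO than CHEMO STD (9.88 ± 6.69 against 3.76 ± 1.58 CPM, log2 fold change 1.33, standard error 0.408), though not by limma voom (0.90). All these genes had an adjusted edgeR p of 0.487 or more.

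None of the 10 tested nitric oxide and cGMP genes passed both thresholds in a comparison by edgeR, with 1 at p below 0.05 in CHEMO FO versus TUMOUR STD and 0 in the others. The list of 6 lymphatic endothelial genes had a median log2 fold change of 0.32 for CHEMO STD versus TUMOUR STD. There 5 values were positive, none of them called. The exception was the lymphatic transcription factor Prox1, which muscle fibres also express, called lower at -0.88. For CHEMO FO versus TUMOUR STD the list's median was -0.15, with 4 negative values and 2 positive. Prox1 was called lower there too (-0.65), a call lost without TUMOUR STD 9, CHEMO FO 17 or CHEMO FO 18. Lyve1 (0.85) and Pdpn (1.09) were called higher in CHEMO FO than TUMOUR STD, and without CHEMO FO 18 they stood at 0.27 and 0.14. That sample also had the highest summed leukocyte and macrophage genes (831 CPM). Which cells carried Lyve1 and Pdpn was not tested. Leaving out TUMOUR STD 9 or 11 also ended both calls, as did TUMOUR STD 10 or 12 that of Lyve1 and TUMOUR STD 8 that of Pdpn. Neither was called by limma voom (0.24 and 0.33) or with only the compared groups fitted by edgeR, and Pdpn was not called by DESeq2 (0.15). Of 14 hypoxia-inducible genes, 12 were higher in CHEMO FO than CHEMO STD (median 0.11), where 51.3% of all genes were lower. By edgeR 2 of the 14 had p below 0.05 there, beside 4.5% of all genes. Versus TUMOUR STD, 6 of the 14 were higher in CHEMO STD and 8 in CHEMO FO. The glucose transporter Slc2a1 was called higher in CHEMO FO than CHEMO STD (0.72). Its call was lost with CHEMO STD 1 and 2 kept separate (0.54) and on leaving out any of 12 of the 20 libraries.

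**Figure D5:**
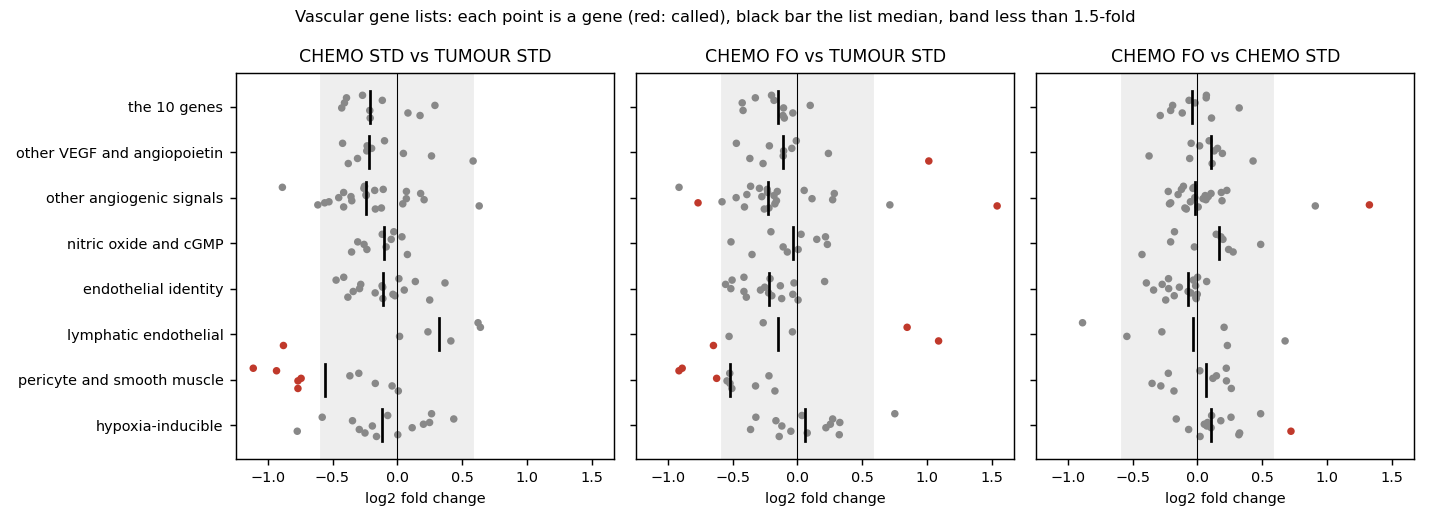
Log2 fold change (x axis) of each tested gene (points) of the 10 genes and 7 further lists (y axis) in the 3 comparisons; black bars are list medians, the grey band marks less than 1.5-fold, and red points passed both thresholds. The 10 genes lie inside the band in every panel, while 5 pericyte and smooth muscle genes are called lower in CHEMO STD versus TUMOUR STD.

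In the lists of other cell types and fibre types, a few genes were called. Slow fibre genes Myh7 (-0.94) and Atp2a2 (-0.62) were called lower in CHEMO STD than TUMOUR STD, as was Myh7 in CHEMO FO (-0.61). Of all genes tested, 1.45% and 2.51% were called lower in these comparisons. All 10 slow fibre genes had negative values in both, beside 50.3% and 49.6% of all genes. The call of Atp2a2 was lost by limma voom, without TUMOUR STD 8, CHEMO STD 6 or CHEMO STD 7 and with neither CHEMO STD 1 nor 2, and that of Myh7 in CHEMO FO by limma voom and on leaving out any of 8 of the 20 libraries. The leukocyte gene Ptprc was called higher in CHEMO STD than TUMOUR STD (1.16) and lower in CHEMO FO than CHEMO STD (-1.16), values that were 0.39 and -0.38 without CHEMO STD 7. The macrophage gene Cd163 was called higher in CHEMO FO than TUMOUR STD (1.22; 0.35 without CHEMO FO 18), but not by DESeq2 (0.34) or limma voom (0.32). The desmosome gene Dsp was called lower in both chemotherapy groups than TUMOUR STD (-3.47 and -2.66), and without TUMOUR STD 10 it was -0.22 and 0.64. It was not called by limma voom (-0.83 and -0.78), and DESeq2 gave it no p. Haemoglobin and erythroid genes summed to 231 to 601 CPM in TUMOUR STD, 126 to 935 CPM in CHEMO STD and 16.1 to 892 CPM in CHEMO FO. The part of these cells in the levels of the 10 genes was not tested.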

How the data were processed

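Gastrocnemius RNA of 20 libraries was sequenced (TUMOUR STD 5, CHEMO STD 7, CHEMO FO 8). The authors trimmed reads with Trim Galore 0.4.1, aligned them to the rat genome (Rnor 6) with TopHat2 2.0.10 and Bowtie2, annotated genes with Ensembl in Partek Flow and deposited unnormalised integer counts per gene, the values used here. How reads were counted, in strand and in multiple matches, is not given in the sources used here. Whether reads of overlapping genes were told apart is therefore not known. Of 32883 rows, 388 without a gene name (0.102% to 0.272% of a library's counts) were left out.

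The analysis used edgeR 4.0.16 in R 4.3.3. CHEMO STD 1 and 2 were summed, genes kept by filterByExpr (minimum count 10, minimum total 15), libraries scaled by TMM, and the 3 groups fitted together with the quasi-likelihood test (glmQLFit, glmQLFTest). The call of a gene required an unadjusted p below 0.05 and at least 1.5-fold, the study's thresholds, and p-values were adjusted by Benjamini-Hochberg over all 11716 genes. Ratios of counts (0.5 added) were compared by two-sided exact permutation tests, and correlations used log2 CPM (prior count 2) minus group means with 100000 permutations within groups. Alternatives were DESeq2 1.42.0, limma voom (limma 3.58.1), other scalings, filters and fold thresholds, only the compared groups, and each library left out in turn. Leaving out both CHEMO STD 1 and 2 and permuting single genes were added after seeing the data. The genes named were the 10, every gene of the 14 further lists that was called, and for Vegfa, Kdr, Angpt2 and Tek the 3 most alike genes of at least 5 CPM. Genes named at p below 0.05 alone (Cdh5, Mmrn2, Rasip1, Tal1, Cd34 and Nrp1) were chosen after their values were seen. The uncalled pericyte and smooth muscle genes (Pdgfrb, Abcc9, Kcnj8, Mcam and Rgs5) and Aqp1 were also named after that. The 10 genes, lists and tests were chosen with earlier results of these data known. Listed symbols not matched in the table (Pecam1, Prkg1, Myh1, Atp2a1, Hbb-b1, Trp63 and Ttn) were not used here. The scripts were tested on simulated counts. Intervals cover the spread between samples.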

Additional observations from a re-analysis of the deposited data

Results flagged for a closer look

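In CHEMO FO, sample 15 had 251 CPM of Vegfa against a group median of 136 CPM, and its distance from the next sample was 0.547 of the group's whole range, past the critical value of Dixon's test at the 95% level. It was the only such value in 39 groups of samples examined (10 genes and 3 ratios in 3 groups), where chance alone flags about 1 in 20. Without it the log2 fold change of Vegfa in CHEMO FO versus TUMOUR STD was -0.05 in place of 0.10.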

How the results depend on the processing

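No member of the 10 genes was called in any comparison of the 20 fits that left out 1 library. None was called under another normalization, filter, test or the 2-fold threshold either. With no fold threshold the counts were 1 (CHEMO STD versus TUMOUR STD) and 2 (CHEMO FO versus TUMOUR STD). Over all genes, for the chemotherapy effect, the diet effect and CHEMO FO versus TUMOUR STD in turn, the calls numbered 279, 195 and 422, with 971, 722 and 1116 without a filter, 762, 527 and 1059 with no fold threshold, and 64, 58 and 112 at 2-fold. With neither CHEMO STD 1 nor 2 the first was 603. Leaving out 1 library gave 161 (without TUMOUR STD 10) to 529 (without TUMOUR STD 8; 450 without TUMOUR STD 11) for the first and 273 (without CHEMO FO 18) to 584 for the third. Tie1 had p below 0.05 by edgeR in 19 of 20 such fits for CHEMO STD (-0.46 to -0.31) and 20 of 20 for CHEMO FO (-0.49 to -0.33), each versus TUMOUR STD, and Nos3 in 19 of 20 for CHEMO FO (-0.48 to -0.32). All 3 kept p below 0.05 under 11 other settings. Signs turned in the following cases. In CHEMO FO versus CHEMO STD, Eng was -0.021 with CHEMO STD 1 and 2 separate, Vegfb 0.058 and Tie1 0.042 by limma voom, and Kdr -0.017 and Tie1 0.073 with neither CHEMO STD 1 nor 2. In CHEMO FO versus TUMOUR STD, limma voom gave Vegfa -0.011 and Tek 0.029. With 1 library left out, Eng ran from -0.030 to 0.096, Kdr from -0.018 to 0.16, Tie1 from -0.089 to 0.014, Vegfb from -0.14 to 0.036, the log2 Flt1/Kdr ratio from -0.092 to 0.16 and the Vegfa/Vegfb ratio from -0.29 to 0.0032 in CHEMO FO versus CHEMO STD. In CHEMO FO versus TUMOUR STD, Angpt1 ran from -0.27 to 0.099, Angpt2 from -0.19 to 0.0091, Tek from -0.088 to 0.026, Vegfa from -0.050 to 0.23, the Angpt2/Angpt1 ratio from -0.25 to 0.21 and Dsp, a large difference that rested on TUMOUR STD 10, from -3.66 to 0.64. Without the 2 farthest samples of each pair, 0 of 45 correlations passed the adjusted threshold by permutation, in place of 2. The cause of these shifts was not tested. No paired analysis was possible because the replicate numbers run through the series and no 2 groups share one. Angpt2, with 15 to 124 counts, is the gene whose depth was lowest.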
